A study of Arabidopsis thaliana with 30 samples.

Results

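The 5 genes described here, all of pectin breakdown, were followed across all 10 groups of an array study of auxin in the Arabidopsis thaliana root. AT2G43880, AT2G43890, AT3G59850 and AT1G65570, called RCPG (root cap polygalacturonase), are predicted polygalacturonases, and AT1G67750 is a predicted pectate lyase. They are 5 of 13355 genes with a probe set annotated to 1 gene and 5 of the 9321 genes whose signal passed the filter on low values, and each was read by 1 probe set. They were chosen by name with results of these arrays in view, so their auxin responses and their levels in every group count as used in the choice and are given as a description, with no test. Whether related genes cross-hybridise to these probe sets was not tested.

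The study asked how separate root tissues respond early to auxin. All plants were 1-week-old seedlings in the Col-0 background, treated for 2 h with 5 µM of the natural auxin indole-3-acetic acid (IAA) or with solvent alone (mock). Green fluorescent cells were sorted after 1 h of wall digestion from reporter lines: pWOL::GFP for the stele, the enhancer trap line E3754 for the xylem-pole pericycle, pWER::GFP for the epidermis with the lateral root cap, and the enhancer trap line PET111 for the columella, the central part of the root cap. Roots that were neither digested nor sorted (intact roots) formed the fifth sample type, and each sample type had 3 mock and 3 auxin arrays, 30 in all. The auxin-treated sorted cells were digested in medium that still held 5 µM IAA. Digestion, sorting, the longer exposure and the mixture of tissues in a whole root therefore cannot be told apart in any comparison of sorted cells with intact roots. In the intact root, fewer cells of a type and less RNA per cell cannot be told apart either.

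Pectin is the gel-like polysaccharide that fills the primary wall and glues neighbouring cells together. Its main chain, homogalacturonan, is secreted with methyl groups that pectin methylesterases remove; the bared chain is then cut by polygalacturonases, which add water across the bond, or by pectate lyases, which break it without water. In roots these enzymes are known for wall loosening, for the separation of cells and for the shedding of root cap cells. Auxin alters the transcription of many wall genes while cells change their growth.

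The tissue labels were checked with few markers, because most listed marker genes have no named probe set. The stele regulator LHW was the 1 named gene of 13 stele markers, and its mock signal was 233 to 328 in the stele, 79.0 to 237 in the pericycle, 74.6 to 132 in the epidermis, 79.7 to 117 in the columella and 217 to 326 in intact roots. Stele and pericycle mock arrays overlapped, so LHW did not separate those labels in mock cells. In auxin-treated cells LHW was 454 to 616 in the stele and 141 to 171 in the pericycle, without overlap. The root hair expansins EXPA7 and EXPA18 were the 2 named of 8 epidermal markers, and in mock arrays their summed signal was 508 to 708 in sorted epidermis, against 97.0 to 395 in the other sorted tissues and 1930 to 2161 in intact roots. No listed pericycle (0 of 2) or columella (0 of 6) marker had a named probe set, so those 2 labels were not checked. Array medians ran from 54.4 to 82.9, and arrays of a group correlated at r between 0.938 and 0.982 across genes, which are not independent replicates.

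In mock-treated sorted cells the 3 polygalacturonases other than RCPG had their highest mean signal in the epidermis, then the columella, the pericycle and the stele. AT2G43880 gave 4272, 2834 and 2622 in the epidermis arrays, 2642, 2248 and 2048 in the columella, 1888, 1557 and 1879 in the pericycle, and 654, 813 and 623 in the stele. The stele arrays lay below all others, whereas 1 columella array exceeded 1 epidermis array, so those neighbours in the order overlapped. AT2G43890, whose gene lies next to AT2G43880 in the RefSeq gene order, gave 1313, 1466 and 1586 in the epidermis, 1703, 915 and 759 in the columella, 525, 650.0 and 611 in the pericycle, and 327, 259.8 and 403 in the stele. Epidermis and columella overlapped here too, and the pericycle was above the stele on every array. AT3G59850 gave 2097, 1479 and 1477 in the epidermis, 1250.5, 1126 and 955 in the columella, 649, 889.9 and 1009 in the pericycle, and 511, 484 and 407 in the stele. Of its neighbours in this order, columella and pericycle overlapped.

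RCPG had a different order. Its mock signal in the columella was 6872, 14912 and 19208, a mean of 13664 ± 6262 (SD, n = 3). It gave 4063, 3470.5 and 4036 in the pericycle, 1641, 2352 and 1220.4 in the epidermis, and 689, 888 and 689 in the stele. The columella mean was 3.54 times the pericycle mean and 18.1 times the stele mean, and the 4 tissues did not overlap on any array. The 3 columella arrays themselves spread widely, so the size of these ratios is uncertain.

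The pectate lyase AT1G67750 also had its highest mock signal among sorted tissues in the epidermis. It gave 964, 552 and 656 in the epidermis and 411, 262 and 266 in the columella. The pericycle gave 193, 231 and 122, and the stele 171, 116 and 71.8. Pericycle and stele overlapped, and both lay below every columella array.

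**Figure D1:**
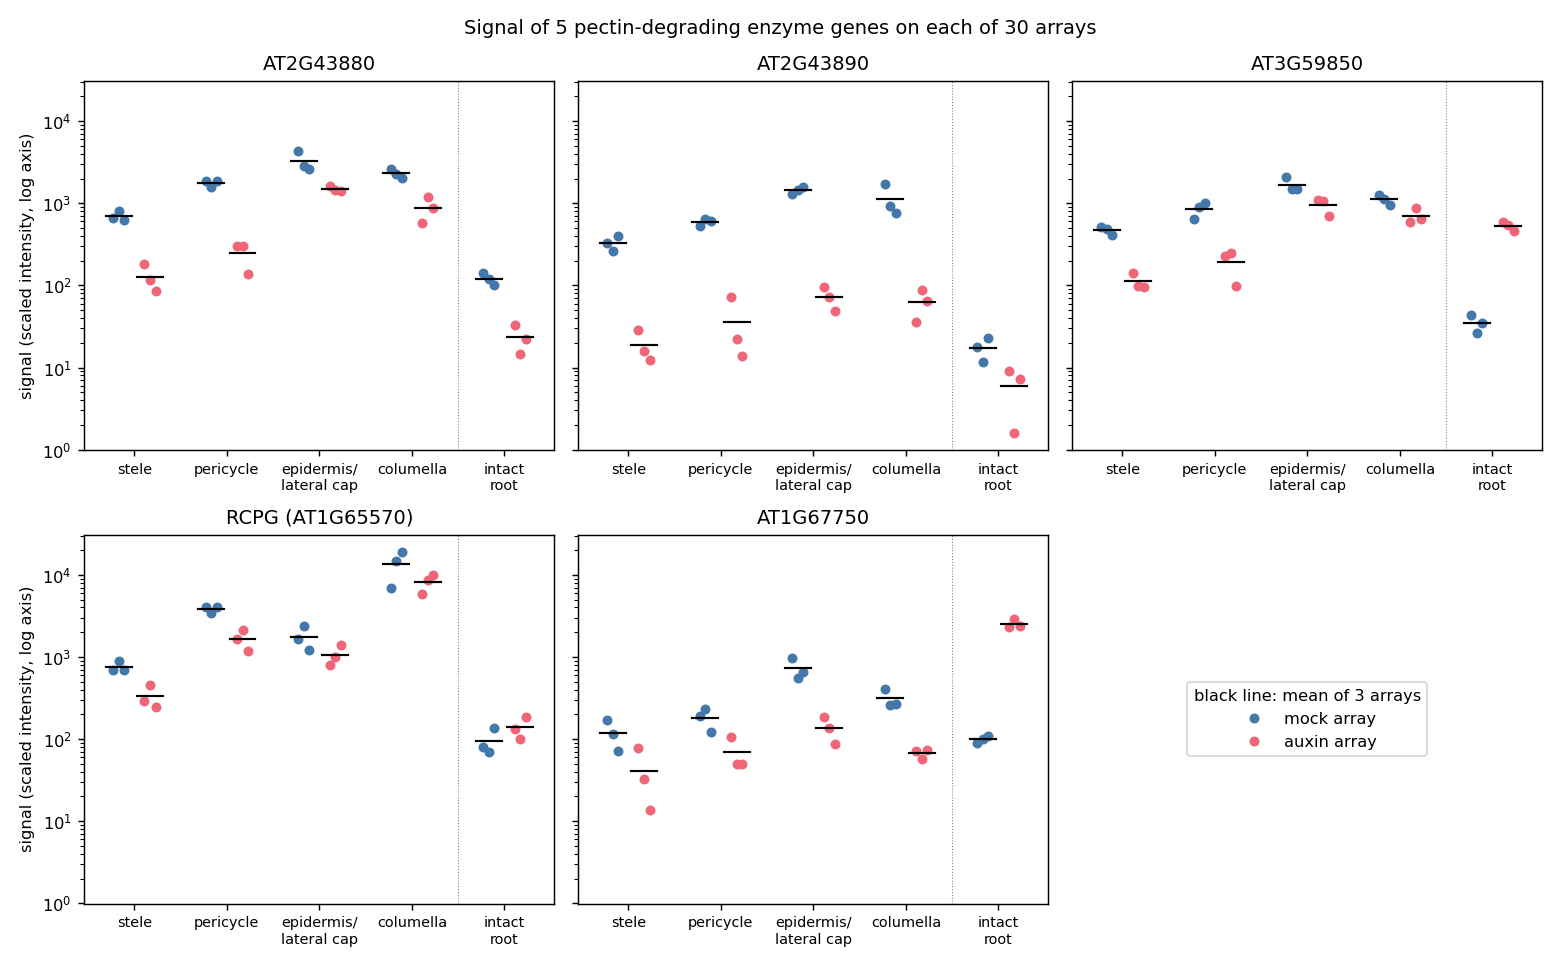
Signal of each of the 5 genes on every array (log axis, deposited signal units), with mock and auxin arrays side by side in the 5 sample types and group means marked. RCPG peaks in the columella at 13664 in mock cells, and AT1G67750 and AT3G59850 are the genes whose intact-root auxin arrays lie above the mock arrays without overlap.

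Intact mock roots gave lower signals than any sorted mock sample for 4 of the 5 genes. AT2G43880 gave 142, 118 and 102 in intact mock roots, AT2G43890 gave 17.9, 11.8 and 22.8, AT3G59850 gave 43.5, 26.6 and 35.1, and RCPG gave 80.7, 69.9 and 137. For each of these 4 polygalacturonases all 12 sorted mock arrays lay above all 3 intact mock arrays, a separation found in 16.1% of the genes tested. The average sorted level exceeded the intact level by 3.69 ± 0.21 (log2(signal + 16), standard error of the fit) for AT2G43880, or 12.9-fold, and by 4.51 ± 0.25 for AT2G43890. For AT3G59850 the difference was 4.21 ± 0.20, or 18.5-fold, and for RCPG it was 4.70 ± 0.24, or 26.0-fold. The AT2G43890 signal in intact mock roots was at the 26.7th percentile of its arrays, so its ratio rests on a signal among the dimmest probe sets. The added constant shrinks ratios of dim probe sets, so these folds are smaller than those of the signals themselves.

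AT1G67750 separated the sample types less. Its intact mock arrays gave 88.5, 101 and 109, within the range of the stele arrays. The average sorted level was higher by 1.26 ± 0.26 on the same log2 scale, and the sorted and intact arrays overlapped.

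The endodermis and cortex lie outside the 4 reporters and are present in intact roots. Of 11 listed markers of these layers, 3 were named (SGN3, C1 and CO2), and their summed mock signal was 1138 to 1280 in intact roots against 135 to 792 over the sorted tissues. SGN3 carried most of this difference, with mock means of 880 in intact roots and 78.0 to 194 in sorted tissues. The C1 mock mean was 318 in intact roots, 361 in the columella and 299 in the pericycle, with overlap. In the stele (111) and the epidermis (102) every C1 mock array lay below the intact ones. CO2 stayed at mean signals of 7.47 to 20.5 in every group. The part of these layers in the sorted-to-intact differences of the 5 genes was not tested.

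In auxin-treated sorted cells the average level of all 5 genes was lower than in mock cells. Of the 20 comparisons of 1 gene in 1 sorted tissue, 17 had every auxin array below every mock array and 3 overlapped. The share of genes tested that lay lower without overlap was 15.6% in the stele, 10.2% in the pericycle, 13.6% in the epidermis and 10.4% in the columella, where 4, 5, 4 and 4 of the 5 genes did. AT2G43880, AT2G43890 and AT3G59850 lay lower without overlap in all 4 tissues, as did 2.18% of genes tested. Since the genes were chosen on these contrasts, nothing is read from these counts.

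AT2G43890 showed the largest difference of the 5. Auxin-treated epidermis gave 94.8, 73.1 and 48.3, a mean of 72.1 ± 23.3 against 1455 ± 137 in mock epidermis. In the columella it gave 35.5, 88.4 and 64 with auxin against a mock mean of 1125 ± 506. Pericycle arrays gave 71.5, 22.5 and 13.9, and stele arrays 28.9, 15.8 and 12.4. The auxin arrays of the stele thus sat about where intact mock roots did. The log2 changes were -4.09 in the epidermis, -3.83 in the columella, -3.71 in the pericycle and -3.31 in the stele, each with a standard error of 0.32. Averaged over the 4 tissues the change was -3.74 ± 0.16, a level 13.3-fold lower. With log2(signal + 1) the changes were -4.36 in the epidermis, -4.15 in the columella, -4.34 in the pericycle and -4.11 in the stele. The spread between tissues thus depended on the added constant.

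For its neighbour AT2G43880 the difference between treatments was smaller in the outer tissues than in the inner ones. Auxin-treated epidermis gave 1638, 1445 and 1417, and the columella gave 578, 1197 and 879. Pericycle arrays gave 304, 302 and 137, and stele arrays 179.9, 118 and 84.6. Each set lay below its mock set. The log2 changes were -2.84 in the pericycle and -2.36 in the stele, against -1.42 in the columella and -1.07 in the epidermis (standard error 0.27 each). The average change was -1.92 ± 0.13, a level 3.79-fold lower.

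AT3G59850 had the same split between inner and outer tissues. With auxin it gave 229, 246 and 99.0 in the pericycle and 142, 99.1 and 94.8 in the stele. In the epidermis it gave 1087, 1063 and 698, and in the columella 584, 878 and 646. The log2 changes were -2.13 in the pericycle, -1.93 in the stele, -0.82 in the epidermis and -0.66 in the columella (standard error 0.25 each), and the average was -1.39 ± 0.13, a level 2.61-fold lower. In the outer tissues the groups did not overlap.

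RCPG kept the order of its tissue means under auxin, with 5903, 8648 and 9894 in the columella, a mean of 8148 ± 2042. This was 4.91 times the pericycle mean and 24.4 times the stele mean of auxin-treated cells. The pericycle gave 1653, 2143 and 1186, the epidermis 799, 987 and 1387, and the stele 293, 462 and 245. Unlike in mock cells, pericycle and epidermis arrays overlapped. Auxin arrays lay below mock arrays in the pericycle, with a log2 change of -1.24, and in the stele, with -1.18 (standard error 0.30 each). In the epidermis (-0.69) and the columella (-0.65) the treatments overlapped. The columella value rested on single arrays: it was -1.09 without mock replicate 1 and -0.35 without mock replicate 3. The epidermis value was -0.45 without mock replicate 2. The average change was -0.94 ± 0.15, a level 1.92-fold lower.

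For the pectate lyase AT1G67750 the larger differences were in the outer tissues. With auxin it gave 187, 136 and 86.1 in the epidermis and 72.2, 57.7 and 74.5 in the columella. It gave 107, 49.5 and 49.9 in the pericycle, and 77.5, 32.7 and 13.8 in the stele. The groups did not overlap except in the stele. The log2 changes were -2.30 in the epidermis, -1.94 in the columella, -1.33 in the stele (-0.81 with a pseudocount of 64) and -1.25 in the pericycle (standard error 0.33 each), and the average was -1.71 ± 0.16, a level 3.26-fold lower. The differences in response between tissues were not tested for any of the 5 genes.

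The epidermal markers moved in the same direction in sorted cells. The summed signal of EXPA7 and EXPA18 was 29.9 to 55.1 in auxin-treated epidermis, against 508 to 708 in mock epidermis, and 11.5 to 62.5 in the other auxin-treated sorted tissues. In intact roots the sum was 1896 to 2157 with auxin and 1930 to 2161 in mock roots. The part of these cells, or of genes they share, in the lower levels of the 5 pectin genes was not tested.

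**Figure D2:**
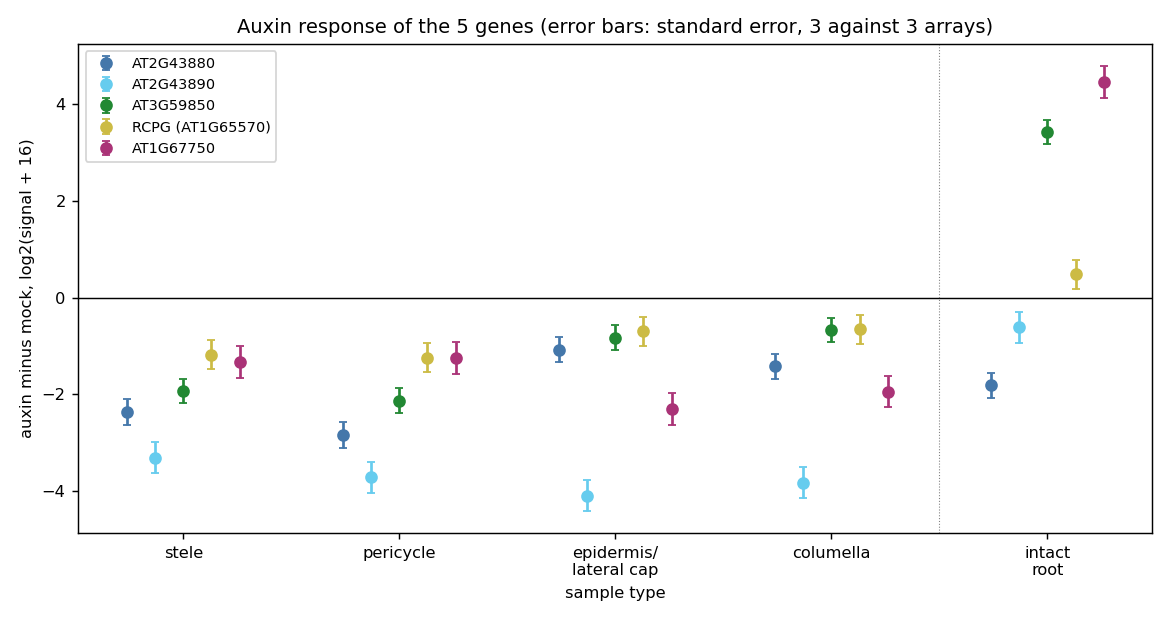
Auxin response (auxin minus mock, log2(signal + 16)) of each of the 5 genes in the 4 sorted tissues and in intact roots, with bars for the standard error of the fit. All 20 sorted values are below 0, while AT1G67750 (4.46) and AT3G59850 (3.42) are far above 0 in intact roots.

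Intact roots divided the 5 genes. AT1G67750 gave 2303, 2895 and 2400 in auxin-treated intact roots against 88.5, 101 and 109 in mock roots, from the 55.5th to the 97.7th percentile of the arrays. Its log2 change was 4.46 ± 0.33, a level 22.0-fold higher, and the auxin mean of 2533 ± 318 was also above every sorted group. AT3G59850 gave 584, 539.6 and 463 with auxin against 43.5, 26.6 and 35.1, a log2 change of 3.42 ± 0.25 or 10.7-fold. Both genes lay higher without overlap, as did 16.5% of genes tested. AT3G59850 was also lower without overlap in all 4 sorted tissues, a combination held by 14 genes (0.15% of those tested).

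The adjacent pair did not share this direction. AT2G43880 gave 32.5, 14.8 and 22.4 in auxin-treated intact roots against 142, 118 and 102, a log2 change of -1.81 ± 0.27 (-1.08 with a pseudocount of 64). AT2G43890 gave 9.13, 1.58 and 7.23 against 17.9, 11.8 and 22.8, a log2 change of -0.61 ± 0.32 that was -1.58 with a pseudocount of 1 and -0.22 with 64. Both lay lower without overlap, as did 18.4% of genes tested, but the AT2G43890 signals were dim on all of these arrays, with the auxin mean at the 14th percentile. RCPG gave 134, 99.9 and 185 against 80.7, 69.9 and 137, with overlap and a log2 change of 0.48 ± 0.30, which was 0.32 without mock replicate 2, 0.73 without mock replicate 3 and 0.28 without auxin replicate 3.

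Setting the intact and sorted responses side by side divided the 5 genes by size and direction. The intact response exceeded the average sorted response by 6.17 ± 0.36 on the log2 scale for AT1G67750 and by 4.81 ± 0.28 for AT3G59850, which were higher in intact roots and lower in sorted cells. For AT2G43880, lower in both kinds of sample, the difference of 0.11 ± 0.30 was smaller than its standard error. Which response was larger depended on the added constant. The intact and average sorted changes were -2.38 and -1.98 with a pseudocount of 1, and -1.08 and -1.76 with 64. The difference was 3.13 ± 0.36 for AT2G43890 and 1.43 ± 0.34 for RCPG. AT2G43890 was already dim in intact mock roots, with a mean signal of 17.5 at the 26.7th percentile. With the added constant its level there could not fall as far as in sorted cells. Its difference therefore cannot tell a weaker intact response from a lack of room to fall. In the same intact roots the summed endodermis and cortex markers were 412 to 533 with auxin against 1138 to 1280 in mock roots, and their part in these values was not tested.

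The likeness of the 5 genes depended on whether intact roots were counted. Over the 8 sorted group means AT2G43880 and AT3G59850 correlated at r = 0.991, and over all 10 means at 0.712. AT2G43880 and AT1G67750 correlated at 0.881 over the sorted means and at -0.0851 over all 10. The adjacent pair AT2G43880 and AT2G43890 kept 0.84 and 0.873. RCPG and AT1G67750 were the least alike, at 0.374 and -0.143. These correlations are descriptions over group means that share arrays, scaling and treatment.

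Genes most like each of the 5 over the 10 group means were found among all genes tested. For AT2G43890 the most similar was AT2G41810, at r = 0.99 over the group means and 0.969 over the 30 arrays. AT2G43880 was closest to NET4B and to AT3G24670, a predicted pectate lyase, each at 0.977 over the means, with 0.931 and 0.957 over the arrays. The nearest to RCPG was AT4G18450, at 0.983 and 0.963. For AT3G59850 the most similar was AT3G03160, at 0.931 over the means and 0.697 over the arrays, and for AT1G67750 it was AT3G57950, at 0.93 and 0.722. Lower values over the arrays also occurred for further companions of the adjacent pair, such as AT4G24290 with AT2G43890 (0.957 and 0.706) and AT5G25100 with AT2G43880 (0.976 and 0.772).

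AT2G43870, a further predicted polygalacturonase, lies on the other side of AT2G43880, so 3 predicted polygalacturonase genes stand in a row. It was not among the 5 chosen genes and could be tested. It fell in all 4 sorted tissues, with a log2 change of -1.66 in the epidermis, -1.32 in the columella, -0.95 in the pericycle and -0.80 in the stele, and its average change was -1.18 ± 0.14 (limma adjusted p = 8.23e-09). In intact roots its change was 0.19 (limma adjusted p = 0.779). Its mean signals there were 10.7 in mock and 14.7 in auxin-treated roots, both below the added constant. A fall the size of the sorted average could therefore not have been seen in intact roots, and this test cannot decide whether the gene fell there. Its mock level was higher in sorted cells than in intact roots by 3.11 ± 0.21 (limma adjusted p = 4.13e-15), with 436 ± 133 in the columella against 10.7 ± 1.5 in intact roots. The gene passed the filter on low values through sorted arrays, so this mock difference is not independent of the filter. Thus 2 features of the adjacent pair, the lower level with auxin in sorted cells and the low level in intact mock roots, were also measured in the third gene of the row. Both contrasts share the sorted mock arrays, and the second gives no separate support because of the filter.

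Other genes of pectin modification and breakdown moved in both directions. Of 187 further loci, listed by enzyme family, 119 had a named probe set and 66 passed the filter on low values. On average over the sorted tissues 12 rose and 16 fell (42.4% of the list, against 41.2% of all genes tested), with a list median of -0.01 against 0.09 for all genes. The 1 tested gene of homogalacturonan synthesis passed in no auxin response. By family, 4 polygalacturonases rose and 4 fell of 20, 1 pectate lyase rose and 5 fell of 16, and 5 pectin methylesterases rose and 4 fell of 21. The largest falls were those of the pectin methylesterase AT5G04960, -2.60 ± 0.20 (limma adjusted p = 2.26e-13), the pectin methylesterase inhibitor PMEI4, -1.56 ± 0.15 (7.12e-11), and the polygalacturonase AT4G01890, -1.54 ± 0.18 (1.74e-08). The polygalacturonase AT3G62110 rose most, by 0.91 ± 0.14 (2.47e-06). In single tissues 6 rose and 10 fell in the stele (24.2%, background 24.4%), 1 and 7 in the pericycle (12.1%, background 12.3%), 4 and 7 in the epidermis (16.7%, background 12.8%), and 2 and 6 in the columella (12.1%, background 7.09%). Single arrays moved these counts: 10 genes were called in the stele without auxin replicate 2, 5 in the pericycle without auxin replicate 2, and 4, 5 and 4 in the columella without mock replicate 2, mock replicate 3 or auxin replicate 2.

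In intact roots 8 of the 66 rose and 9 fell (25.8%, against 12% of all genes tested). The pectin methylesterase inhibitor PMEI9 rose by 3.24 ± 0.25 (limma adjusted p = 3.76e-12). The pectate lyases AT4G13710 and AT1G04680 rose by 2.95 ± 0.28 (6.52e-10) and 2.77 ± 0.23 (1.09e-11). The polygalacturonase AT5G14650 changed by 2.75 ± 0.42 (7.79e-06), with a mean signal of 152 in auxin-treated intact roots and 6.96 to 22.6 in every other group. It passed the filter on low values mainly through the group where it was high, so its rise is not independent of that filter. The pectate lyase AT5G63180 changed by -2.29 ± 0.37 (limma adjusted p = 1.86e-05). Its mean signal was 111 in mock intact roots, 10.4 in auxin-treated intact roots and 0.95 to 19.0 in the sorted groups. It passed the filter mainly through the mock intact arrays, so its fall is not independent of the filter, and its sorted levels were near the floor. AT5G14650 and AT5G63180 are both counted among the called genes of this paragraph. AT1G04680 was the 1 gene of the list that fell on average over the sorted tissues (-0.37 ± 0.11, limma adjusted p = 0.00878) and rose in intact roots. The average values of AT1G67750 and AT3G59850 had the same pair of directions. In no single sorted tissue was AT1G04680 called, with log2 changes from -0.67 in the columella to -0.10 in the epidermis. The intact response differed from the sorted average for 19 of the 66 (28.8%, against 11.1% of all genes tested), and 6 of the 16 pectate lyases were more positive in intact roots while 1 was more negative. Of these 6, AT1G04680, AT4G13710 and AT1G11920 were called higher with auxin in intact roots. AT3G24670 (-0.25), AT4G24780 (0.44) and AT5G48900 (0.38) were not called there and fell in the sorted average. The contrast of intact with sorted responses was chosen for the list after its values had been seen. Leaving out any 1 of the 6 intact arrays lowered the count for the intact response from 17 to between 11 and 13. The lowest counts, without auxin replicate 1 of the intact roots, were 11 for the intact response and 12 for its difference from the sorted average. The share of all genes called in these runs was not computed.

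**Figure D3:**
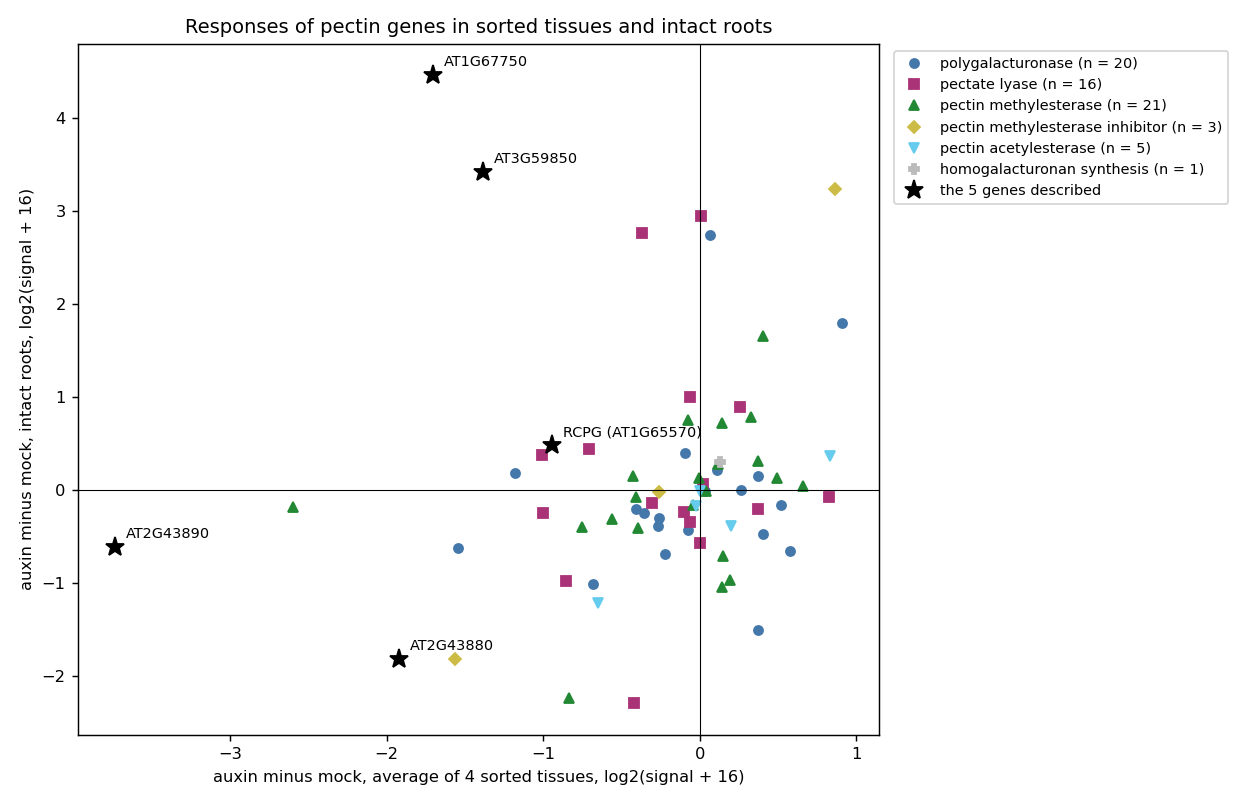
Auxin response in intact roots (vertical) against the average response of the 4 sorted tissues (horizontal), both log2, for the 66 other pectin genes by family and the 5 described genes. AT1G67750 and AT3G59850 lie at the upper left, at 4.46 and 3.42 in intact roots and -1.71 and -1.39 in sorted cells, with AT1G04680 (2.77 and -0.37) the gene of the list called in those 2 directions.

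Mock levels of most other pectin genes tested also differed between sorted cells and intact roots. In sorted mock cells 31 of the 66 were higher and 16 were lower (71.2%, against 61% of all genes tested), and the list median was 0.44 against 0.01 for all genes. The pectin methylesterases AT3G10720 (4.32 ± 0.18, limma adjusted p = 3.08e-21) and AT5G04970 (3.70 ± 0.21, 2.21e-17) had differences of the size seen in the 4 polygalacturonases described above, and AT5G53370, a further pectin methylesterase, differed as far the other way (-3.90 ± 0.21, 3.07e-18). Mock levels differed among the 4 sorted tissues for 37 of the 66 (56.1%, against 35% of all genes tested), and the auxin response did so for 4 (6.06%, against 2.59%). The last count was 2 when any of 7 arrays was left out.

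**Figure D4:**
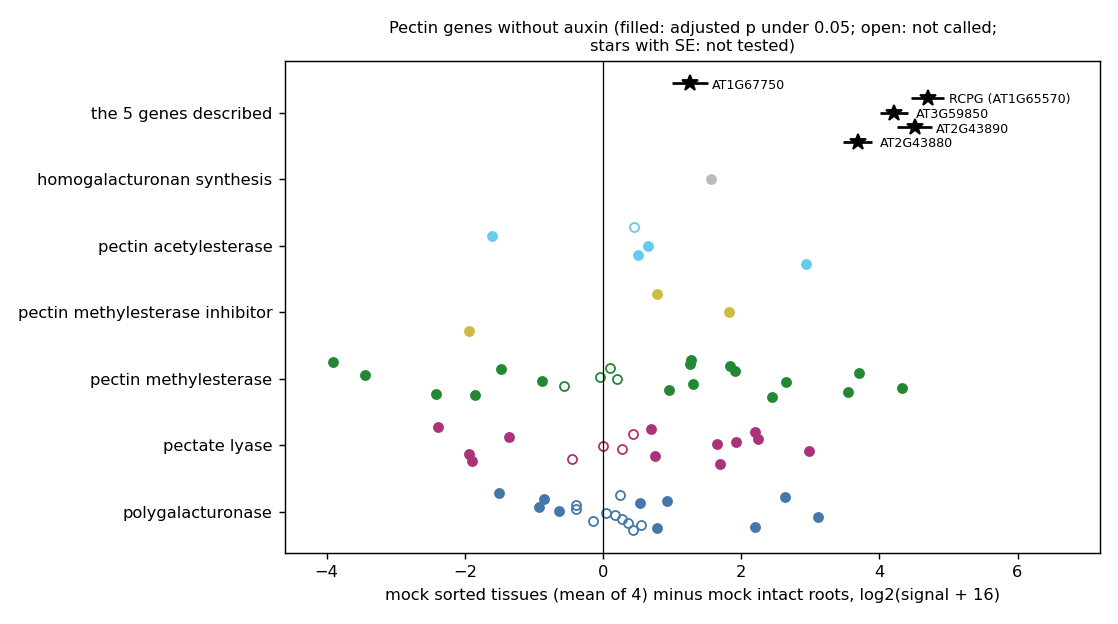
Difference between the mean mock level of the 4 sorted tissues and mock intact roots (log2) for the 5 genes and the 66 other pectin genes by family, 1 point per gene. The 4 polygalacturonases of the 5 lie between 3.69 and 4.70 and AT1G67750 at 1.26, while the list reaches from -3.90 to 4.32.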

How the data were processed

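The authors deposited a linear intensity for each probe set and array from amplified and biotin-labelled RNA per the labels' protocols; the submitters' processing notes name MAS5. No version or genome build was found for it. Leaving out the lowest and highest 2% of probe sets, the mean was 250 on every array. Samples were grouped by their titles. The platform annotation pairs 13513 of 22810 probe sets with 1 gene, and a gene was read by its brightest such probe set. RefSeq (assembly TAIR10.1) gave names and gene order only, so no coordinates are given.

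Values were taken as log2(signal + 16) and modelled as group means over all 30 arrays with limma 3.58.1 under R 4.3.3 and a trended variance (20 residual degrees of freedom). Genes above the 40th percentile of their array on at least 3 arrays were tested, and p-values were adjusted by Benjamini-Hochberg over 9321 genes, with a call at an adjusted p under 0.05. Tests were two-sided; the fit was tested on simulated data. The ± after a log2 change is a standard error and after a signal an SD of 3 arrays; the number of arrays limits the precision. Whether replicates were separate cultures is not stated in the labels; p-values then reflect only the spread among these arrays, possibly technical.

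The 5 genes, the pectin gene list, its enzyme families (from general knowledge of locus names, since the tables hold no descriptions) and the markers were chosen with earlier results of these data known. Named from the list are up to 4 called genes of largest change (or smallest F-test p) per contrast and direction, genes called in both kinds of sample, AT2G43870 as a neighbour, and, for each of the 5 genes, those of highest correlation over the 10 group means. Alternatives were quantile and 75th-percentile normalization, pseudocounts of 1 and 64, no filter, a replicate block, fits on the arrays of 1 comparison, the mean of a gene's probe sets, and leaving out each array. Figures were drawn with matplotlib 3.10.9.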

Additional observations from a re-analysis of the deposited data

Results flagged for a closer look

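The intact response exceeded the average sorted response by 6.17 on the log2 scale for AT1G67750 and by 4.81 for AT3G59850. They stood out because the intact roots and the sorted tissues moved in opposite directions; this difference was not tested, since both genes were chosen with these values known.

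The auxin response differed among the 4 sorted tissues for 4 of the 66 other pectin genes tested. Other settings moved this count in both directions. It was 1 in fits on the arrays of the comparison alone, 2 with log2(signal + 1) and 6 with log2(signal + 64). It was 2 when any 1 of 7 arrays was left out, and 5 without stele mock replicate 1. The limma F-test gave an adjusted p of 0.0242 for the pectate lyase AT3G24670, whose log2 changes were -1.63 (stele), -1.38 (pericycle), -0.36 (epidermis) and -0.64 (columella). For the pectate lyase AT5G48900 the adjusted p was 0.0286, with -1.30 in the stele, -1.71 in the pericycle, -0.57 in the epidermis and -0.46 in the columella. The polygalacturonase AT4G01890 (adjusted p = 0.0346) had its larger changes in the outer tissues, -2.52 in the epidermis and -2.06 in the columella, against -1.33 in the stele and -0.26 in the pericycle. Its mock means were 132 in the epidermis and 57.3 in the columella, but 32.2 in the stele and 15.0 in the pericycle. With the added constant the inner levels could not fall as far. The F-test therefore cannot tell a weaker inner response of this gene from a lack of room to fall. The pectin methylesterase AT5G04960 (adjusted p = 0.0362) changed by -3.63 in the epidermis, -3.34 in the columella, -1.87 in the stele and -1.56 in the pericycle. Its mock means were 561, 231, 157 and 59.7 in the same order. The pericycle level likewise had no room for a fall of the outer size.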

How the results depend on the processing

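No auxin change or mock sorted-minus-intact difference of the 5 genes reversed in sign under any alternative run. The differences between their intact and sorted responses were not rerun. For AT2G43880 the larger of these 2 responses depended on the pseudocount. With log2(signal + 1), the intact changes were -2.38 for AT2G43880, -1.58 for AT2G43890 and 3.90 for AT3G59850, the average sorted change of AT2G43890 was -4.24 (-4.11 in the stele, -4.34 in the pericycle), and the mock sorted-minus-intact differences were 5.37 for AT2G43890 and 4.70 for AT3G59850. With log2(signal + 64), the intact changes were -1.08 for AT2G43880, -0.22 for AT2G43890, 2.58 for AT3G59850 and 3.98 for AT1G67750, the average change of AT2G43890 was -2.91 (from -3.49 in the epidermis to -2.24 in the stele), the stele changes of AT3G59850 and AT1G67750 were -1.60 and -0.81, and the mock differences were 3.29 for AT2G43880, 3.32 for AT2G43890, 3.32 for AT3G59850 and 4.20 for RCPG. Called genes of the list whose responses differed among tissues numbered 2 with log2(signal + 1) and 6 with log2(signal + 64). Fits on the arrays of the comparison alone left 1 such gene, and 5 called genes in the pericycle and 5 in the columella. Leaving out single arrays gave counts of 10 (without stele auxin replicate 2) to 16 in the stele, 5 (without pericycle auxin replicate 2) to 10 in the pericycle, 9 to 12 in the epidermis, 4 (without columella mock replicate 2) to 10 in the columella, 11 (without intact auxin replicate 1) to 13 in intact roots, 23 to 31 for the average response, 2 (without stele auxin replicate 2, pericycle mock replicate 1 or 3, pericycle auxin replicate 3, epidermis auxin replicate 1 or 3, or columella auxin replicate 2) to 5 for response differences, 44 to 47 for mock sorted against intact, 32 to 38 for mock differences among tissues, and 12 (without intact auxin replicate 1) to 19 for intact against sorted responses. Whether same-numbered arrays shared more than a number is not stated in the labels. Their deviations correlated at -0.012 to 0.375, over 0.1 in 6 of 15 pairs, and 9 of 15 matched their own number best. With the replicate number as a block the counts were 17, 9, 13, 9 and 19 in the 5 sample types, and 29 for the average, and the block moved no count by more than 1.5 times. Centring on the 75th percentile moved the median of all genes by 0.13 in mock sorted against intact. The cause of these shifts was not tested. Fold changes of dim signals, such as AT2G43890 in intact roots, depend on the pseudocount.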
